A study of Homo sapiens with 12 samples.

Results

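The comparison described here asked what switching on an N-Myc transgene did to the transcriptome of Tet21N neuroblastoma cells from which MondoA had been depleted by RNA interference. It used 6 of the 12 arrays of the study. In 3 of them the cells had received MondoA siRNA and no drug, so that Myc was on (siMondoA, Myc on). In the other 3 the cells had received the same siRNA after growth with 1 microgram/ml doxycycline for 3 days, so that Myc was off (siMondoA, Myc off). The remaining 6 arrays, of cells given a non-specific siRNA with Myc on or off (siControl), served as the setting with MondoA present. All 4 groups are 1 human cell line, and the label of each array was taken from its title. Since doxycycline was present in all Myc-off samples and in no other, what the drug does by itself cannot be told apart from what N-Myc does. Whether the 3 replicates of a group were grown separately is not stated, and p-values then cover only the spread between these samples, possibly of a technical kind.

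N-Myc, the product of MYCN, is a transcription factor that pairs with MAX and binds E-boxes in promoters of genes for ribosome production, nucleotide synthesis and cell division; its gene is amplified in a subset of neuroblastomas. MondoA, the product of MLXIP, belongs to the same extended network: it pairs with MLX, accumulates in the nucleus when hexose phosphates are abundant, and activates targets of which the thioredoxin-interacting protein gene TXNIP is the best known. Tet21N cells derive from SH-EP, a substrate-adherent neuroblastoma line of mesenchymal character, and carry a MYCN transgene that doxycycline represses.

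Each of the 6 arrays detected 18752 to 19510 of 47313 probes, and 12178 genes were detected well enough to be tested. Within a group the arrays correlated at r = 0.988 to 0.990 (Myc on) and 0.986 to 0.989 (Myc off), against 0.969 to 0.972 between the groups. Values below are log2 signals after background correction and quantile normalization, which place each gene relative to the rest of its array. Of the mesenchymal neuroblastoma markers, 14 of 20 with a probe were detected on all 3 arrays of each group, among them VIM, PRRX1 and SNAI2. The summed linear signal of the 16 that were tested was 39256 to 43315 with Myc on and 44784 to 45587 with Myc off. Of the adrenergic markers, 7 of 21 were detected on all 3 arrays with Myc on and 9 with Myc off. The summed signal of the 10 that were tested was 1995 to 2055 against 2097 to 2338. Endothelial markers were detected throughout in neither group (0 of 10), and of the blood cell markers CD14 and CD68 alone were. In bulk RNA, fewer cells of a type and less RNA per cell cannot be told apart.

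The 2 manipulated genes could not be read from their own probes. The MLXIP probe was detected on 1 of 12 arrays and on 0 of the 6 MondoA siRNA arrays, and both MYCN probes on 0 of 12; where these probes lie relative to the transgene was not examined. Whether MondoA was depleted to the same degree with Myc on and off could thus not be read. In place of MLXIP, though not of MYCN, the level of the known MondoA target TXNIP was read. Its signal was 7.88, 7.85 and 8.14 on the siMondoA Myc-on arrays and 6.72, 6.73 and 6.55 on the siMondoA Myc-off arrays. With control siRNA it was 11.26, 11.29 and 11.36 (Myc on) and 11.17, 10.93 and 11.17 (Myc off). All 6 MondoA siRNA arrays thus lay far below all 6 control siRNA arrays, and with MondoA depleted TXNIP was higher with Myc on. That change was 1.29 ± 0.12 (log2 ± SE, n = 3 arrays a group; limma adjusted p = 1.44e-05), against 0.22 ± 0.12 with control siRNA (adjusted p = 0.179), and the difference of the 2 changes was 1.07 ± 0.16 (adjusted p = 0.00217). The endogenous MYC gene, which N-Myc is known to repress in neuroblastoma cells, measured 8.12, 7.91 and 7.76 with Myc on and 8.97, 8.99 and 8.84 with Myc off in MondoA-depleted cells. With control siRNA it measured 6.31, 5.89 and 6.26 with Myc on and 9.08, 9.07 and 9.15 with Myc off. MYC thus fell by 1.00 ± 0.13 with MondoA depleted (adjusted p = 0.000153) and fell by 2.95 ± 0.13 with control siRNA (adjusted p = 3.14e-08), a difference of 1.95 ± 0.19 (adjusted p = 7.69e-05).

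The TXNIP promoter carries the paired motif through which MondoA is known to act, and is shown for that reason. The capitals mark a CCAAT box and the CACGAG pair, whose sites are separated by 5 bases. The 50 bases lie on the minus strand at chr1:145996640-145996689 of GRCh38.p14 (RefSeq), and the pair begins 88 bases before the transcription start.
TXNIP: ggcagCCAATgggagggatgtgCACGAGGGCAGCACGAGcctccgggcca

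N-Myc changed the level of many genes in MondoA-depleted cells, in nearly equal numbers up and down. At a Benjamini-Hochberg adjusted p below 0.05 in limma, which is what rose, fell and passed mean below, 3655 of 12178 genes (30%) differed, 1818 higher (14.9%) and 1837 lower (15.1%) with Myc on. Of these, 220 were at least 2-fold higher (1.81%) and 216 at least 2-fold lower (1.77%). The arrays of the 2 groups did not overlap for 41.8% of all genes. The split between higher and lower calls rests on the scaling. With median scaling in place of quantile normalization the median of all genes moved to 0.13, against -0.02, and 2399 genes were higher and 749 lower, so that 76.2% of the calls were higher, against 49.7%. Each of the 6 arrays detected 39.6% to 41.2% of its probes, so the median probe that this scaling uses was not a detected one. Counts of genes lower with MondoA depleted are given below under both scalings where they differ by more than 1.5 times. List counts with control siRNA were taken under quantile normalization alone. Under median scaling 775 genes were higher with control siRNA, against 1774, so those list counts may depend on the scaling too.

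Among the genes furthest up were a tissue-restricted translation factor, neuropeptide genes and replication genes. EEF1A2, an elongation factor normally found in neurons and muscle, measured 9.50, 9.34 and 9.27 with Myc on and 6.91, 6.50 and 6.37 with Myc off, a 6.84-fold rise (log2 2.77 ± 0.14, adjusted p = 3.38e-07). The groups were separated by more than 2 log2 units. GLRX5, a mitochondrial glutaredoxin of iron-sulfur cluster assembly, measured 11.15, 11.05 and 10.99 with Myc on against 9.30, 9.39 and 9.47 with Myc off, a 3.20-fold rise (adjusted p = 1.66e-06). UTS2, which encodes the vasoactive peptide urotensin II, was 3.28-fold higher (1.71 ± 0.15, adjusted p = 1e-05). NTSR1, the neurotensin receptor, was detected on all 3 Myc-on arrays (6.65, 6.71 and 6.63) and not well above background on any Myc-off array, so its rise was at least 2.79-fold (adjusted p = 1.71e-06). The neurotensin gene NTS itself rose by 0.85 and VGF, a secreted neuronal peptide precursor, by 1.04. TGM2, a transglutaminase, rose 2.91-fold on the probe used (1.54 ± 0.16), with 1.00 and 0.60 on its other probes. CTXN1, MIX23 and MARCKSL1 rose by 1.67, 1.80 and 1.52.

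The genes furthest down encode proteins of several kinds, among them a semaphorin, an HLA molecule, a lysosomal glycoprotein and a protease. SEMA5A, a transmembrane semaphorin, measured 6.22, 6.41 and 6.30 with Myc on and 8.82, 8.47 and 8.66 with Myc off, 5.07-fold lower (-2.34 ± 0.12, adjusted p = 3.38e-07); its second probe gave -1.10. HLA-B, a class I antigen-presenting molecule, measured 7.91, 7.86 and 7.56 with Myc on against 10.20, 10.08 and 9.89 with Myc off, 4.87-fold lower (adjusted p = 9.31e-07). The lysosomal and melanosomal glycoprotein gene GPNMB was 4.81-fold lower (8.46, 8.32 and 8.87 against 10.88, 10.81 and 10.75; adjusted p = 1.71e-06). None of these 3 genes had overlapping groups. CASP1, the protease of the inflammasome, was detected on all Myc-off arrays (7.03, 6.94 and 6.79) and not well above background on any Myc-on array, so it was at least 3.40-fold lower (adjusted p = 4.88e-05). HSD17B14, a steroid dehydrogenase, fell by 2.13, SLCO2B1, an organic anion transporter, by 1.99, and TNFSF4, the ligand of OX40, by 1.98. PGF, a growth factor of the VEGF family, measured 8.29, 8.25 and 7.65 with Myc on against 9.93, 9.78 and 9.74 with Myc off, and fell by 1.75 ± 0.22 (adjusted p = 0.0001).

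**Figure D1:**
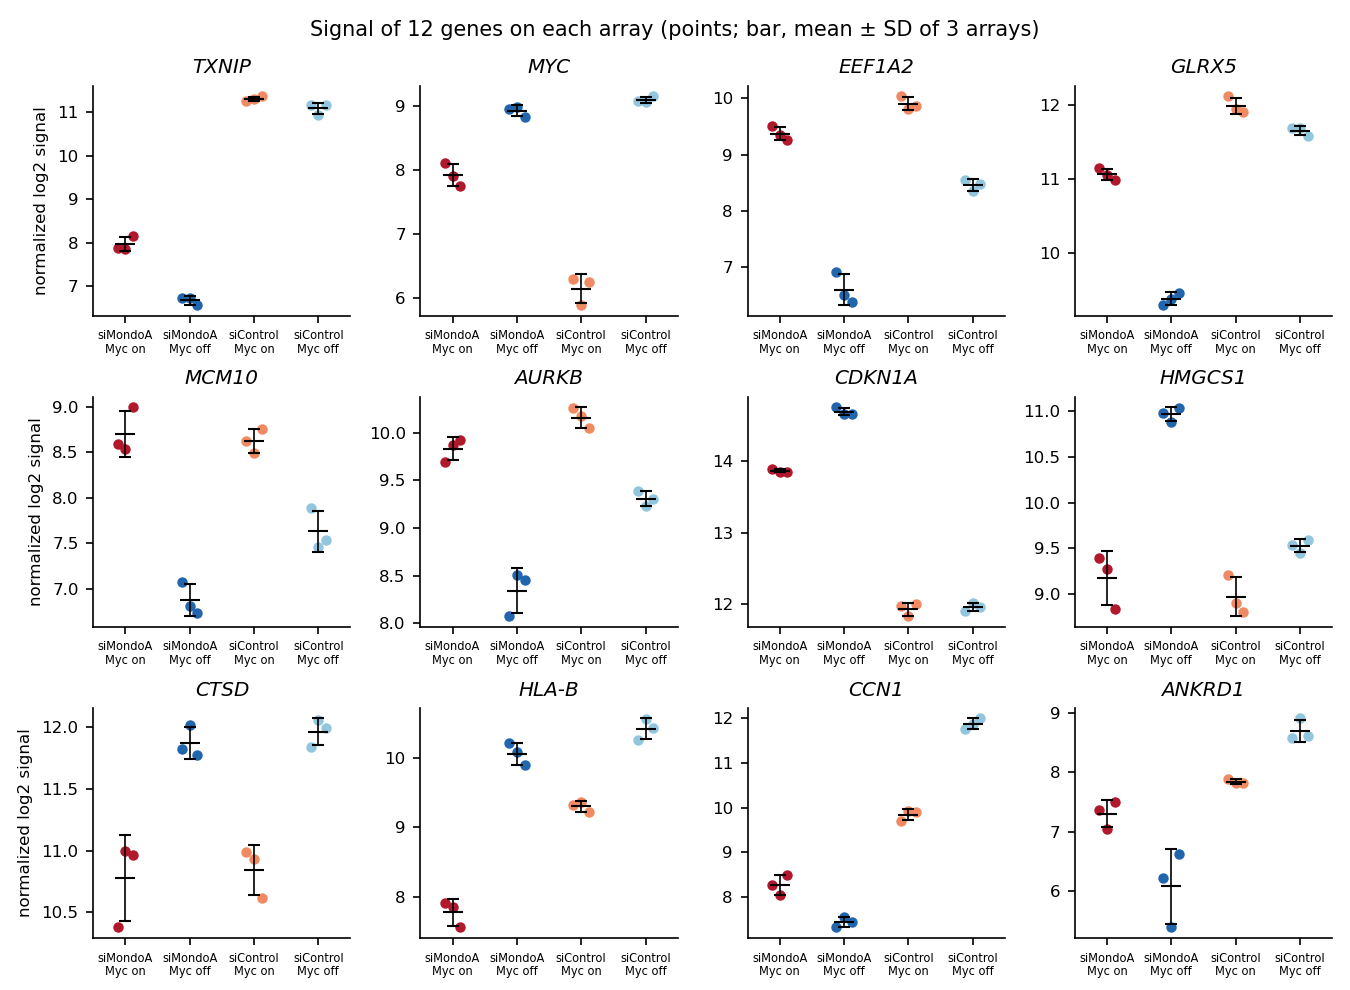
Normalized log2 signal (vertical axes, not starting at 0) of 12 genes on each array, in the 4 groups named below each panel; points are arrays and the bars mean ± SD of 3 arrays. In the 2 left-hand groups, of MondoA-depleted cells, the Myc-on and Myc-off points do not overlap for any of the 12 genes, whereas CDKN1A overlaps between the 2 groups with control siRNA.

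Cell division genes had the largest share of members that rose among the 42 lists examined. Of 38 genes of mitosis and the spindle checkpoint, 36 rose and 0 fell in MondoA-depleted cells, with a median of 1.01, against a median of -0.02 over all genes tested. All 38 had non-overlapping arrays in the higher direction, as did 20.5% of all genes; the 2 that did not pass the test were FOXM1 (0.38) and BUB3 (0.33). AURKB, the catalytic subunit of the chromosomal passenger complex, measured 9.69, 9.87 and 9.92 with Myc on and 8.07, 8.50 and 8.45 with Myc off (1.49 ± 0.13, adjusted p = 1.14e-05). MAD2L1, the spindle checkpoint effector, rose by 1.50, the mitotic kinase gene PLK1 by 1.35, the checkpoint kinase gene BUB1 by 1.34 and the microtubule-binding HMMR by 1.28. The main mitotic kinase gene CDK1 rose by 1.18.

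With MondoA present fewer of these genes passed. In control siRNA cells 20 of the 38 rose and 0 fell, beside 14.6% of all genes higher there, with a median of 0.40. The difference of the changes, tested for each gene, passed for 14 mitosis genes, all in the direction of a larger change with MondoA depleted, beside 8.7% of all genes passing and 5.15% passing in that direction. It passed for 23 under median scaling, and for 9 when Myc-on replicate 1 of the MondoA siRNA or Myc-off replicate 1 of the control siRNA was left out. CDC25C, the phosphatase that activates CDK1, gave the widest gap: 7.36, 7.06 and 7.38 with Myc on against 5.80, 5.96 and 6.33 with Myc off under MondoA siRNA, and 7.81, 7.65 and 7.76 against 7.79, 7.96 and 7.43 under control siRNA. Its Myc-off level in MondoA-depleted cells thus stood apart below the other 3 groups, and the difference was 1.22 ± 0.23 (limma adjusted p = 0.0078). The cyclin gene CCNA2 and DLGAP5, a spindle assembly factor, had changes of 0.92 and 1.00 with MondoA siRNA and of -0.01 and 0.05 with control siRNA. AURKB was at the edge of the threshold (difference 0.64 ± 0.18, adjusted p = 0.0497). For MAD2L1 and CDK1, with differences of 0.56 (adjusted p = 0.11) and 0.12 (adjusted p = 0.798), the test was not passed.

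DNA replication genes rose as a group in both settings. Of 38 tested, 31 rose and 0 fell with MondoA depleted (median 0.87), and 32 rose and 0 fell with control siRNA (median 0.70). MCM10, a replication initiation factor, measured 8.58, 8.53 and 8.99 with Myc on and 7.07, 6.81 and 6.73 with Myc off, a 3.56-fold rise (1.83 ± 0.16, adjusted p = 1.04e-05). The primase PRIM1, the helicase cofactor CDC45 and the helicase subunit MCM4 rose by 1.35, 1.32 and 1.26. The difference between the settings passed for 6 of the 38, for 5 of them in the higher direction, but this count rests on single arrays. It was 0 without siControl Myc-on replicate 1 or siControl Myc-off replicate 1, between 1 and 5 without any other single array, and 10 under median scaling, all higher. Of 22 genes of G1 control, 11 rose and 2 fell. CCNE1, the cyclin of S-phase entry, rose by 1.21 and E2F2 by 1.17, while the genes that fell were the kinase inhibitors CDKN1B (-0.74) and CDKN1A (-0.82).

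The cell cycle homology region (CHR), searched as TTTGAA on both strands, is the element through which the DREAM and MuvB complexes are known to act on G2 and M genes. It was found in 22 of 31 mitosis promoters (71.0%), in 0 of 33 replication promoters and in 10.3% of the 9741 promoters of tested genes, in windows from 250 bases before to 50 after the start. CCAAT boxes were in 80.6% of the mitosis promoters, against 37.5% of those of tested genes. Among genes at least 2-fold higher with Myc on, 26.4% of 148 promoters held a CHR. The stretches from 75 to 16 bases before the start of PLK1 (chr16:23678814-23678873), HMMR (chr5:163460557-163460616) and BUB1B (chr15:40160994-40161053), all on the plus strand of GRCh38.p14 (RefSeq), are given as the promoters of 3 checkpoint or spindle genes that rose. Capitals mark CHR and CCAAT matches on either strand. In HMMR the CCAAT match overlaps a CCAAT match of the opposite strand, and the CHR matches lie side by side further on.
PLK1: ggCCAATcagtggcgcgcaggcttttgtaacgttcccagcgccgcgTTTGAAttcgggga
HMMR: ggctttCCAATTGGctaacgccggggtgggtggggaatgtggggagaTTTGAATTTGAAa
BUB1B: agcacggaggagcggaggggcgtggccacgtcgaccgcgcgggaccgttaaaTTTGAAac
The match begins 29 bases before the start in PLK1, 28 and 22 in HMMR and 23 in BUB1B, so that all lie close to the start. BUB1B itself measured 6.85, 7.35 and 7.20 with Myc on and 6.10, 5.68 and 6.12 with Myc off, and rose 2.24-fold (adjusted p = 0.000177).

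p53 target genes moved opposite to the mitosis genes. In MondoA-depleted cells 0 of 25 rose and 14 fell with Myc on (median -0.56), and under median scaling 9 fell and 1 rose. CDKN1A, which encodes the kinase inhibitor p21, measured 13.89, 13.85 and 13.85 with Myc on and 14.75, 14.66 and 14.66 with Myc off (-0.82 ± 0.09, adjusted p = 6.1e-05). With control siRNA it lay lower on all 6 arrays, between 11.83 and 12.02, and its change with Myc was -0.03 ± 0.09. SESN2, a stress-induced regulator of mTORC1, measured 6.19, 6.30 and 6.36 against 7.22, 8.02 and 7.50, and fell by 1.30 ± 0.23 (adjusted p = 0.00111). PHLDA3 and TP53I3 fell by 1.05 each, although a second, dimmer probe of TP53I3 gave -0.02.

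With control siRNA 7 of the 25 p53 targets rose and 5 fell, beside 16.3% of all genes lower there. The difference passed in the lower direction for 8 of them, beside 3.55% of all genes, and in the higher direction for PLK2 alone; under median scaling 3 passed lower and 2 higher. GADD45A, a DNA damage sensor of the G2 checkpoint, measured 9.89, 9.68 and 9.83 with Myc on and 10.57, 10.25 and 10.56 with Myc off under MondoA siRNA, and 8.99, 8.96 and 9.08 against 8.62, 8.62 and 8.76 under control siRNA. It therefore fell by 0.66 in the one setting and rose by 0.35 in the other (difference -1.01 ± 0.16, adjusted p = 0.003). TIGAR, a regulator of glycolytic flux, fell by 0.57 and rose by 0.47, and SESN1 fell by 0.47 and rose by 0.51; under median scaling their changes of -0.37 and -0.28 with MondoA depleted did not pass. The stress cytokine gene GDF15 fell by 0.84 with MondoA depleted and had 0.13 with control siRNA. MDM2 (-0.50) and BAX (-0.34) did not pass in MondoA-depleted cells. Of 15 BCL2 family genes 1 rose (6.67%) and 4 fell (26.7%), beside 14.9% and 15.1% of all genes, with BOK (-1.35) furthest down. The median of that list was -0.02, and 0.17 under median scaling, which left 1 lower. Without Myc-on replicate 2, Myc-off replicate 2 or Myc-off replicate 3, 2 fell.

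**Figure D2:**
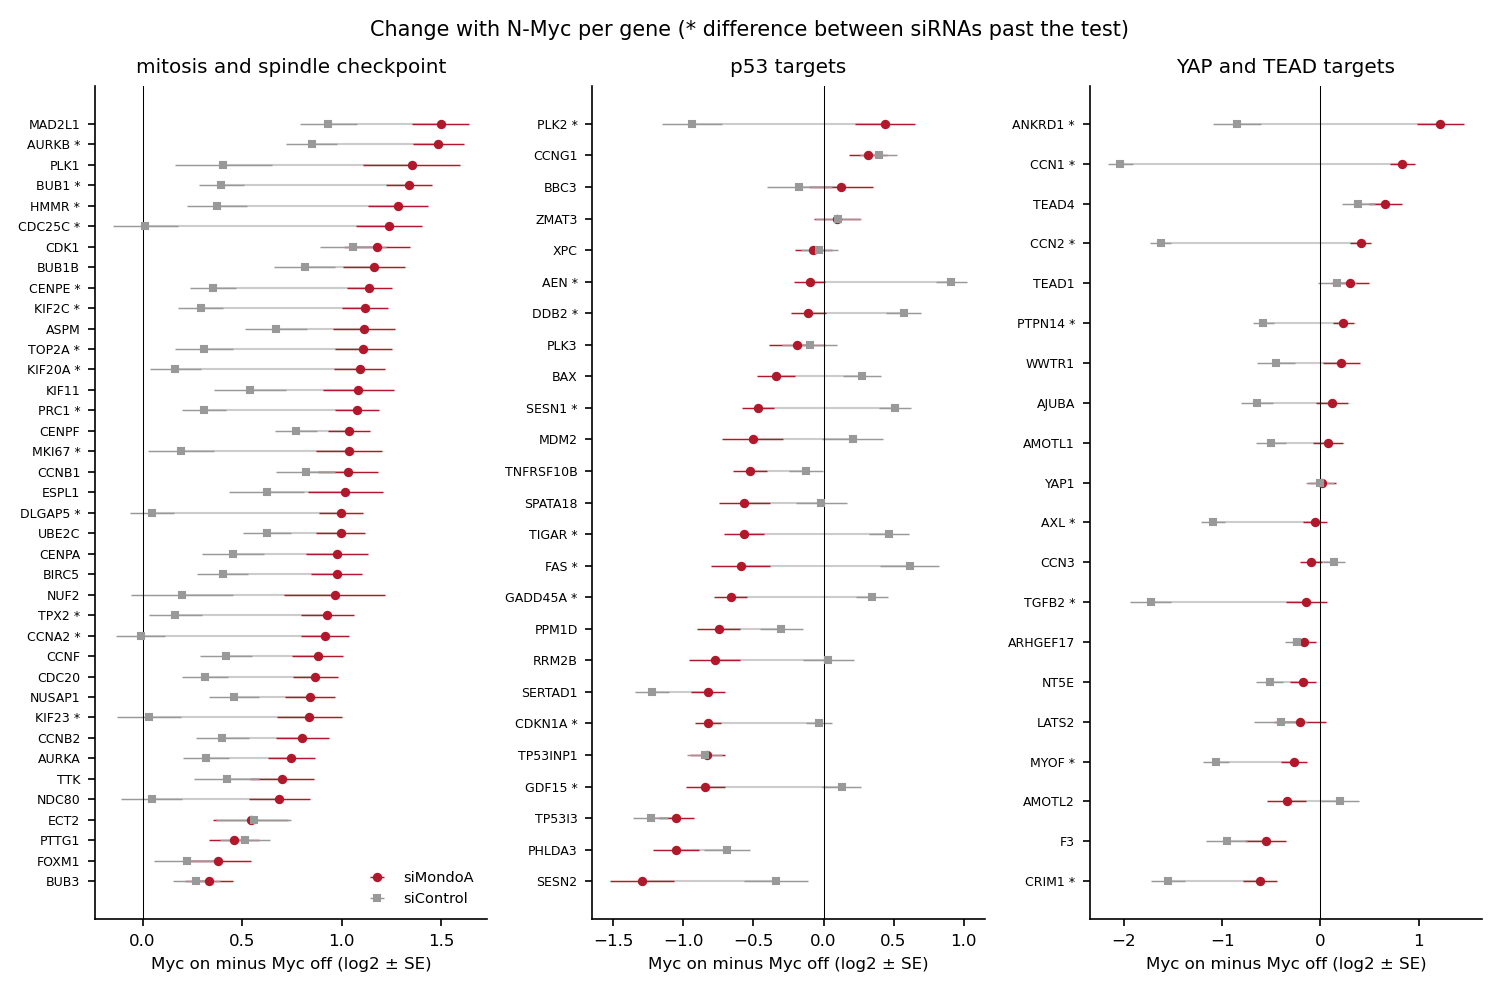
Change with N-Myc (log2 ± SE, horizontal axes) of every tested gene of 3 lists, with MondoA siRNA (red circles) and control siRNA (grey squares); an asterisk marks a difference between the settings that passed limma's test. The red circles of the mitosis list all lie above 0, 21 of 25 of the p53 list lie below it, and all 8 marked genes of the YAP and TEAD list have the red circle to the right of the grey square.

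Growth genes known as Myc targets rose in both settings. Of 42 genes of ribosome biogenesis and RNA polymerase I, 26 rose and 0 fell (median 0.52), with 27 and 0 under control siRNA, and the difference passed for 2 of the 42, in opposite directions. NOP56, a core protein of box C/D small nucleolar particles, measured 11.51, 11.39 and 11.78 with Myc on against 10.11, 10.27 and 10.08 with Myc off (1.40 ± 0.12, adjusted p = 1.14e-05), and its other 2 probes gave 1.17 and 1.38. LYAR, DKC1 and NOLC1, also nucleolar proteins, rose by 1.13, 1.05 and 0.94, and nucleolin, NCL, by 0.76. Small nucleolar RNAs rose too, 20 of 32 with 0 lower and a median of 0.78. SNORD56 measured 7.01, 7.02 and 7.14 with Myc on and 4.98, 5.17 and 4.96 with Myc off, a change of 2.02 ± 0.12 on the measured values (adjusted p = 1.5e-06), although it was above background on 1 of the 3 Myc-off arrays alone. The gene of SNORD56 lies within an intron of NOP56, as background, and the probes cannot say which transcript was labelled. E-boxes, searched as CACGTG, were in 39.4% of 33 promoters of the ribosome biogenesis list, against 10.3% of the promoters of tested genes. Over all genes that rose the share was 13.4% of 1406 promoters, and over all that fell 10.3% of 1510. Among genes at least 2-fold higher it was 11.5% of 148, and among those at least 2-fold lower 11.9% of 177.

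Other parts of the protein synthesis machinery responded in fewer of their members. Of 44 translation factors 9 rose (20.5%, beside 14.9% of all genes) and 2 fell (1 under median scaling). Apart from EEF1A2 the largest rise was that of EIF2S2 (0.96). Of 18 aminoacyl-tRNA synthetases 7 rose and 0 fell in MondoA-depleted cells, with GARS1 (0.61), MARS1 (0.53) and AARS1 (0.52) highest, while 2 rose and 1 fell with control siRNA; the difference passed for 3. Of 25 chaperone genes 12 rose and 1 fell (0 under median scaling). HSP90AA1, the inducible HSP90, measured 13.24, 13.28 and 13.59 with Myc on and 12.60, 12.50 and 12.63 with Myc off (0.79 ± 0.11, adjusted p = 0.000226), against 0.08 ± 0.11 with control siRNA (difference 0.71 ± 0.16, adjusted p = 0.0155; 0.52 and 0.107 with the mean of its probes). CCT8, a subunit of the TRiC chaperonin, and HSPD1, of the mitochondrial chaperonin, rose by 0.92 and 0.82. Of 30 proteasome genes 1 rose (3 under median scaling) and 0 fell, a share below that of all genes.

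Biosynthetic enzymes rose with Myc in MondoA-depleted cells. Of 12 genes of purine synthesis 10 rose and 0 fell in each setting. PRPS1, which makes the ribose donor, rose by 0.91, PFAS by 0.66 and GMPS by 0.64; PPAT, the first committed enzyme of the pathway, rose by 0.42 with MondoA depleted and by 1.09 with control siRNA (difference -0.67 ± 0.15, adjusted p = 0.0184). Of 14 genes of pyrimidine and deoxynucleotide synthesis 11 rose and 0 fell (median 0.57), with 7 and 0 under control siRNA. RRM2, the S-phase subunit of ribonucleotide reductase, measured 8.04, 7.91 and 7.97 with Myc on and 6.45, 6.66 and 6.72 with Myc off (1.37 ± 0.11, adjusted p = 6.97e-06). TK1, the thymidine kinase of cycling cells, measured 10.09, 10.21 and 10.15 against 9.01, 9.19 and 8.75, a change of 1.16 ± 0.13. Under control siRNA RRM2 rose by 0.34, and TK1 had overlapping arrays, 10.16, 10.07 and 10.09 with Myc on against 9.99, 10.30 and 10.05 with Myc off. Both differences passed (1.03 and 1.17).

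Serine and folate enzymes and amino acid carriers were among those that rose. Of 11 genes of serine and folate metabolism 10 rose and 0 fell (median 0.74), and 7 rose with control siRNA. PSAT1, the aminotransferase of serine synthesis, measured 9.74, 9.76 and 9.82 with Myc on and 8.58, 8.38 and 8.34 with Myc off (1.34 ± 0.10, adjusted p = 6.1e-06). PHGDH, the first enzyme of the pathway, and the mitochondrial folate enzyme MTHFD2 rose by 0.80 each, and PSPH, the last enzyme, by 0.78 (0.05 on its second probe). Of 16 genes of glutamine and amino acid transport and use 7 rose and 1 fell (0 under median scaling). SLC7A5, the large neutral amino acid carrier, rose by 1.40 (10.25, 10.39 and 10.28 against 8.91, 8.92 and 8.90), the glutamine carrier SLC1A5 by 0.87 and the asparagine synthetase ASNS by 0.83. In polyamine synthesis AMD1 rose by 0.95 and ODC1 by 0.56.

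Few central carbon genes passed. Of 21 glycolysis genes 4 rose and 3 fell, shares near the 14.9% and 15.1% of all genes, with a median of 0.01; 2 rose without Myc-on replicate 3 or Myc-off replicate 3. Of 22 genes of the TCA cycle 2 rose (9.09%) and 7 fell (31.8%), with a median of -0.10. Under median scaling 4 rose and 1 fell (median 0.06). HK2, a hexokinase and known Myc target, measured 8.34, 8.49 and 8.46 with Myc on and 7.47, 7.62 and 7.39 with Myc off, and rose by 0.94 ± 0.13 (adjusted p = 0.000208), against 1.49 ± 0.13 with control siRNA, while its second probe gave 0.39; the difference did not pass (-0.56 ± 0.18, adjusted p = 0.078). LDHA, the muscle-type lactate dehydrogenase, rose by 0.40 with MondoA depleted, but without Myc-on replicate 3 or Myc-off replicate 3 the changes of 0.33 and 0.36 did not pass (adjusted p = 0.0539 and 0.0554). The neuronal-type glucose transporter gene SLC2A3 fell by 1.16. Of 12 tested MondoA and ChREBP targets, 3 rose (25%, beside 14.9% of all genes) and 0 fell: TXNIP, HK2 and LDHA. ARRDC4, another MondoA target, was not above background on any of the 6 arrays.

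Respiratory chain genes rose in 3 and fell in 10 of 56 cases with MondoA depleted. The share that fell, 17.9%, was near the 15.1% of all genes, and the share that rose, 5.36%, was below the 14.9% of all genes. With control siRNA 13 rose and 0 fell, beside 14.6% of all genes higher and 16.3% lower there. Without Myc-off replicate 1 of the MondoA siRNA cells 5 fell. This list depends on the scaling: its median was -0.08, and 0.04 under median scaling, which gave 4 higher and 0 lower. The difference passed for 2 genes in the higher and 7 in the lower direction, beside 5.15% and 3.55% of all genes. Under median scaling it passed for 2 and 0. Leaving out any single array left 1 to 4 in the lower direction, and the replicate block 2. NDUFS7, a complex I subunit, measured 10.68, 10.81 and 10.57 with Myc on against 11.06, 11.03 and 10.96 with Myc off, and 11.01, 10.96 and 10.89 against 10.67, 10.61 and 10.55 with control siRNA, so the 2 settings had opposite signs (difference -0.68 ± 0.14, adjusted p = 0.0124). COX5B, of complex IV, moved the other way, with 0.74 against 0.02 with control siRNA (difference 0.72 ± 0.15, adjusted p = 0.0117). Of 64 mitochondrial ribosomal protein genes 8 rose (12.5%, below the 14.9% of all genes) and 1 fell (0 under median scaling) with MondoA depleted. With control siRNA 32 rose and 0 fell, yet the difference passed for 2 of the 64. Under median scaling 20 rose with MondoA depleted, and the count with control siRNA was not taken.

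Sterol synthesis genes fell. Of 19 genes of cholesterol synthesis and uptake 0 rose and 13 fell (median -0.73), with 0 and 11 under control siRNA. HMGCS1, the synthase that feeds the mevalonate pathway, measured 9.40, 9.27 and 8.84 with Myc on and 10.98, 10.88 and 11.03 with Myc off (-1.79 ± 0.15, adjusted p = 9.6e-06). Under control siRNA it measured 9.21, 8.90 and 8.80 with Myc on and 9.54, 9.45 and 9.59 with Myc off, so that the Myc-off level of MondoA-depleted cells was the highest of the 4 groups (difference -1.23 ± 0.21, adjusted p = 0.00448). INSIG1, the sterol-regulated anchor of SREBP processing, measured 8.59, 8.82 and 8.78 with Myc on against 10.95, 10.93 and 10.82 with Myc off, a 4.50-fold fall; its second, dimmer probe gave -0.23. MVK, SC5D and TM7SF2, enzymes of the pathway, fell by 1.40, 1.34 and 1.34. The regulator SREBF2 had 0.01. Of 15 fatty acid synthesis genes 1 rose and 7 fell, and 2 fell under median scaling. SREBF1, the main transcription factor of that pathway, fell by 0.90 and its target SCD, the stearoyl-CoA desaturase, by 0.87. FABP5, a fatty acid carrier, measured 10.43, 10.49 and 9.96 with Myc on and 9.06, 9.16 and 9.32 with Myc off, and rose by 1.11 ± 0.16, against 2.44 ± 0.16 with control siRNA (difference -1.33 ± 0.23, adjusted p = 0.00452).

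Lysosome and autophagy genes fell in both settings. Of 39 tested, 26 fell and 1 rose with MondoA depleted (median -0.54), and 29 fell and 0 rose with control siRNA; the difference passed for TPP1 alone, and not when single arrays such as Myc-on replicate 2 of the MondoA siRNA cells were left out (adjusted p = 0.0776). NEU1, the lysosomal sialidase, measured 8.32, 8.21 and 8.24 with Myc on and 9.76, 10.01 and 9.72 with Myc off, 2.97-fold lower (adjusted p = 6.87e-06). CTSD, the protease cathepsin D, measured 10.375, 10.997 and 10.966 against 11.83, 12.02 and 11.77, with a difference between the settings of 0.03 ± 0.24. MCOLN1, the lysosomal calcium channel, fell by 0.94, the serine carboxypeptidase SCPEP1 by 0.90 and the membrane protein LAMP1 by 0.65. TFEB, whose product is a master regulator of these genes, had -0.10 and did not pass. The genes of this list that fell include acid hydrolases, membrane proteins and subunits of the proton pump such as ATP6V0D1 (-0.84).

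E-boxes were also common in promoters of the lysosome list, in 33.3% of 24. The extended form TCACGTGA, the core of the CLEAR element bound by TFEB and its relatives and a subset of the E-box matches, was in 25% of the 24, against 2.02% of the promoters of tested genes. The stretches of CTSD (minus strand, chr11:1763938-1763997), MCOLN1 (plus strand, chr19:7522559-7522618) and SCPEP1 (plus strand, chr17:56978061-56978120) of GRCh38.p14 (RefSeq) show E-boxes in capitals in 3 genes that fell.
CTSD: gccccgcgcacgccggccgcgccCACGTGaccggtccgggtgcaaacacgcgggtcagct
MCOLN1: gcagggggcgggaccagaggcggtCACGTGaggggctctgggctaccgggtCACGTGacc
SCPEP1: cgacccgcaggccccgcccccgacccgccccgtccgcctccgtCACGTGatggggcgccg
The matches begin 47 bases before the start in CTSD, 41 and 14 in MCOLN1 and 27 in SCPEP1. A match describes the letters and does not show that a factor was bound.

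**Figure D3:**
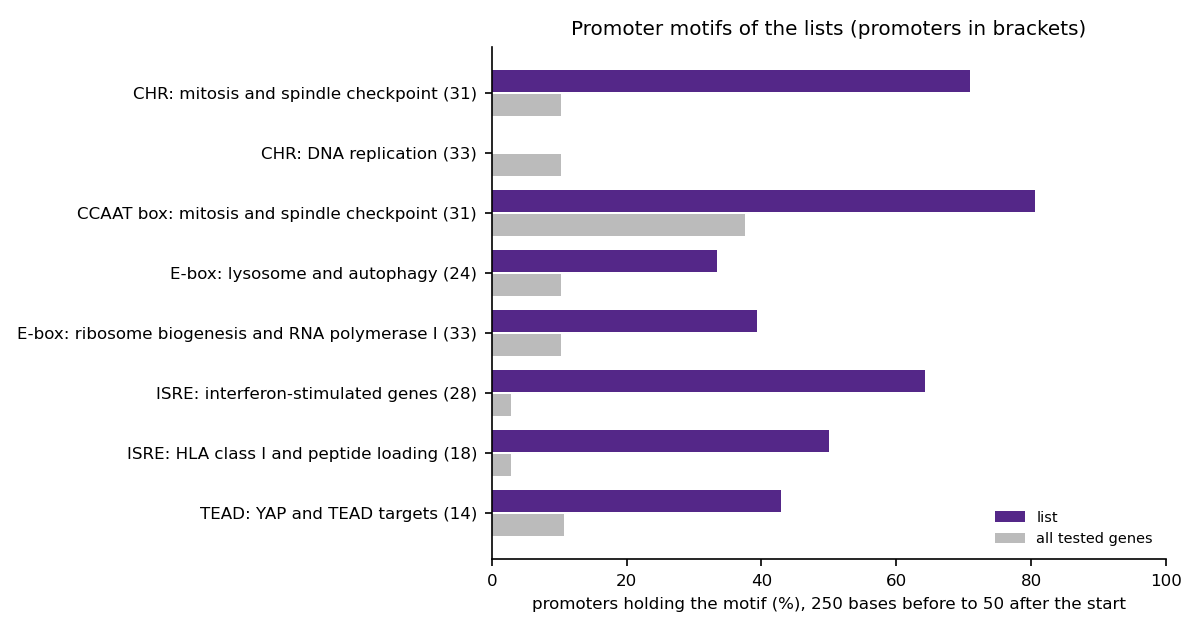
Share of promoters (horizontal axis, %) that hold a motif, for lists (purple) and for all 9741 tested genes with a promoter (grey). The CHR is in 71.0% of mitosis and in none of the 33 DNA replication promoters, and E-boxes are frequent in both the ribosome biogenesis list, where 26 of 42 genes rose, and the lysosome list, where 26 of 39 fell.

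Antigen presentation and interferon-stimulated genes fell. Of 20 genes of HLA class I and peptide loading 12 fell and 1 rose (median -0.44), with 12 and 0 under control siRNA. Besides HLA-B, the class I genes HLA-C and HLA-F fell by 1.06 each, HLA-E by 0.98 and B2M, the light chain shared by class I molecules, by 0.84. TAP1, a subunit of the peptide transporter, fell by 1.06 with MondoA depleted and had -0.30 with control siRNA (difference -0.76 ± 0.16, adjusted p = 0.0123). TAPBP, which encodes tapasin, was the gene that rose: 8.60, 8.90 and 8.53 with Myc on against 7.91, 8.32 and 8.14 with Myc off under MondoA siRNA, and 10.31, 10.28 and 10.44 against 11.16, 11.29 and 11.34 under control siRNA (difference 1.48 ± 0.19, adjusted p = 0.000717). With the mean of its detected probes in place of the brightest, TAPBP had -0.24 and did not pass. Nor did its difference between the settings then pass (adjusted p = 0.145). HLA genes are near-identical in parts, so their probes may share signal.

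Of 35 interferon-stimulated genes 19 fell and 0 rose in MondoA-depleted cells (median -0.45), and 16 fell and 1 rose with control siRNA. IFIT3, an antiviral protein of the IFIT family, measured 7.22, 6.79 and 6.95 with Myc on and 8.49, 8.24 and 8.30 with Myc off (-1.36 ± 0.12, adjusted p = 1.44e-05); 1 of its other probes gave -1.05 and the dimmest 0.24. IRF7 and IRF9, transcription factors of the interferon response, fell by 1.52 and 1.30, and IFIT2 by 1.49. The difference passed for 5 members in the lower direction, but for 1 to 3 of them when any single array was left out, and under median scaling for 0 lower and 3 higher. HERC5, the ligase that attaches ISG15 to proteins and no member of the list, measured 7.77, 7.91 and 7.61 with Myc on and 9.31, 9.14 and 9.40 with Myc off under MondoA siRNA. Under control siRNA it measured 7.79, 7.64 and 7.62 with Myc on and 7.01, 7.06 and 7.10 with Myc off. HERC5 thus fell by 1.52 in MondoA-depleted cells and rose by 0.63 in control cells (difference -2.14 ± 0.16, adjusted p = 1.77e-05).

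The interferon-stimulated response element (ISRE), searched on both strands as a pair of TTTC with any 2 bases between, was in 64.3% of 28 promoters of the interferon list and in 50% of 18 of the HLA list, against 2.86% of the promoters of tested genes. It is the site of the complex that holds IRF9. Promoters of a pair of genes that fell follow, with the element in capitals: IFIT3 (chr10:89327832-89327891) and ISG15 (chr1:1013377-1013436, where both matches are on the opposite strand and overlap), each on the plus strand of GRCh38.p14 (RefSeq).
IFIT3: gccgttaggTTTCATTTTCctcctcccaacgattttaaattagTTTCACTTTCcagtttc
ISG15: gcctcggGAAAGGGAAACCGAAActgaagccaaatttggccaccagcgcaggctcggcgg
The IFIT3 matches begin 156 and 122 bases before the start, and those of ISG15 113 and 107. ISG15 measured 9.11, 9.08 and 8.86 with Myc on and 10.04, 10.15 and 10.13 with Myc off under MondoA siRNA.

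Of 24 inflammatory and NF-kB genes 12 fell and 1 rose (median -0.35), and 6 fell under median scaling. Besides CASP1, the chemokine receptor ACKR3 fell by 1.41, its ligand CXCL12 by 1.14 and the NF-kB subunit RELB by 0.94. CXCL12 and ACKR3 fell by 2.22 and 2.87 with control siRNA, and the differences passed (1.08 and 1.46). The complement proteases C1R and C1S followed the same order: C1S measured 6.32, 6.18 and 6.25 with Myc on and 7.35, 7.60 and 7.51 with Myc off under MondoA siRNA, so it fell by 1.24, and it fell by 2.15 with control siRNA (difference 0.92 ± 0.16, adjusted p = 0.00534). A second, dimmer probe of C1S gave 0.10 with MondoA siRNA and -1.97 with control siRNA.

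Matrix genes fell more often than they rose. Of 40 collagen and matrix genes 21 fell and 4 rose (median -0.37), with 29 and 4 under control siRNA; under median scaling 10 fell and 4 rose in MondoA-depleted cells. COL3A1, a fibrillar collagen, measured 11.54, 11.54 and 11.81 with Myc on and 12.30, 12.71 and 12.44 with Myc off (-0.85 ± 0.13, adjusted p = 0.000425). VCAN, a large proteoglycan, rose by 1.18 with MondoA depleted and by 2.56 with control siRNA. COL12A1, a fibril-associated collagen, rose by 0.62 and fell by 1.33 in the 2 settings (difference 1.96 ± 0.18, adjusted p = 7.42e-05).

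The known targets of YAP and TEAD, which relay cell contact and tension to transcription, included genes whose change with Myc differed between the 2 settings. With MondoA depleted 4 of 20 rose, a share of 20% beside 14.9% of all genes, and 1 fell (0 under median scaling), with a median of -0.02 (0.12 under median scaling). With control siRNA 0 rose and 12 fell, with a median of -0.55. The difference passed for 8, all in the higher direction. CCN1, a secreted matricellular protein and standard YAP target, measured 8.26, 8.05 and 8.48 with Myc on and 7.32, 7.54 and 7.43 with Myc off under MondoA siRNA. Under control siRNA it measured 9.70, 9.92 and 9.90 with Myc on and 11.766, 11.883 and 11.999 with Myc off. It thus rose by 0.84 in the one setting and fell by 2.04 in the other, the largest difference among the genes that passed (2.87 ± 0.18, adjusted p = 7.45e-06). Its relative CCN2 rose by 0.41 and fell by 1.63, and ANKRD1, a nuclear ankyrin protein, rose by 1.22 and fell by 0.85. YAP1 itself had 0.01 with MondoA depleted and did not pass in either setting.

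**Figure D4:**
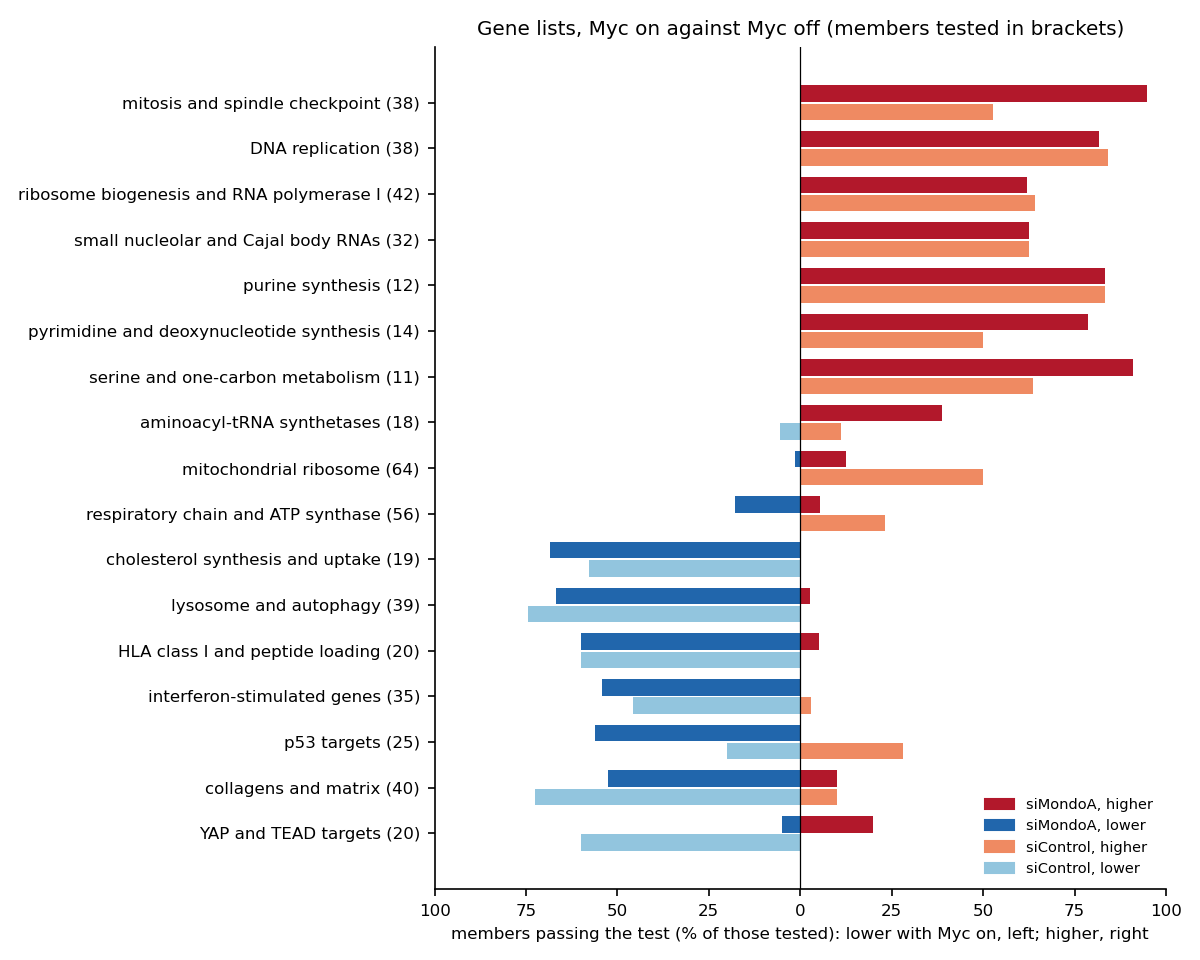
Share of tested list members (number in brackets) that passed limma's test lower (left of 0) or higher (right of 0) with Myc on, for MondoA siRNA (dark) above control siRNA (pale). In the mitosis list 36 of 38 genes passed higher with MondoA siRNA and 20 with control siRNA, and in the YAP list 1 and 12 of 20 passed lower; the medians of the respiratory chain and YAP lists change sign under median scaling.

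Neuronal guidance and other surface genes went in both directions. Of 25 semaphorins, neuropilins and plexins 5 rose (20%) and 7 fell (28%), beside 14.9% and 15.1% of all genes. Without Myc-on replicate 1, Myc-on replicate 2 or Myc-off replicate 1, 2 rose. SEMA7A, a membrane-anchored semaphorin, fell by 1.06 with MondoA depleted and had -0.11 with control siRNA (difference -0.95 ± 0.17, adjusted p = 0.00632), whereas SEMA3F, a secreted one, rose by 0.85 and with control siRNA had overlapping arrays (difference 0.85 ± 0.20, adjusted p = 0.0225). KRT8, a simple-epithelial keratin, measured 9.34, 9.18 and 9.19 with Myc on and 7.87, 7.85 and 8.02 with Myc off under MondoA siRNA, and 8.45, 8.48 and 8.60 against 9.26, 9.79 and 9.68 under control siRNA (difference 2.39 ± 0.19, adjusted p = 2.63e-05). Of 9 epithelial markers tested, KRT8 among them, 2 rose (22.2%) and 1 fell (11.1%) with MondoA depleted. The summed linear signal of the 8 others overlapped, with 459 to 561 with Myc on and 444 to 509 with Myc off. Of 36 replication-dependent histone genes 3 rose (8.33%) and 8 fell (22.2%), beside 14.9% and 15.1% of all genes. Under median scaling 5 fell, and without Myc-on replicate 3 4 fell. Of 14 hypoxia genes 0 rose and 3 fell (21.4%, beside 15.1% of all genes), and 1 fell under median scaling.

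The response to N-Myc overlapped in part with that of cells with MondoA. Under control siRNA 3757 genes passed (30.9%). Of the 1818 genes higher with MondoA depleted, 892 (49.1%) were also higher with control siRNA, which is 50.3% of the genes higher there. Of the 1837 lower genes, 924 (50.3%) were also lower, 46.6% of those lower with control siRNA. In 88 genes a rise with MondoA depleted faced a fall with control siRNA, and in 44 the reverse. The difference passed for every gene of both kinds, which follows nearly by itself from 2 opposite calls and adds no separate support. The 2 contrasts share no arrays, and across genes they correlated at r = 0.539, which describes genes and not independent replicates.

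The difference of the Myc contrast passed for 1059 genes (8.7%), 627 higher and 432 lower with MondoA depleted. Without siMondoA Myc-off replicate 1, siControl Myc-on replicate 2 or siControl Myc-off replicate 3 it passed for 694, 678 and 686 genes, and with no background correction for 1695. In 664 of them the 2 changes had opposite signs, and in the rest the same sign, with 187 larger and 208 smaller in MondoA-depleted cells. FAM107B gave the lowest value: 5.96, 6.27 and 6.34 with Myc on against 7.16, 7.21 and 7.10 with Myc off under MondoA siRNA, and 6.42, 6.51 and 6.66 against 5.10, 5.28 and 4.84 under control siRNA (-2.42 ± 0.19, adjusted p = 2.63e-05). TMEM119, an osteoblast and microglial membrane protein, was detected on all 3 Myc-on arrays with control siRNA and not well above background on any of the other 9, so it had no change to report under MondoA siRNA. CNTNAP2, a neuronal adhesion protein, rose by 2.10 with control siRNA and had 0.15 with MondoA depleted. CRISPLD2 and DIO2 fell by 2.92 and 2.23 with control siRNA and had -0.20 and -0.01 with MondoA depleted, while HBEGF fell by 1.88 and had 0.35. Several named differences rest on the full set of arrays or on the scaling. Those of C1R, CXCL12, SEMA3F and TNFSF4 did not pass when at least 1 single array was left out, with adjusted p up to 0.071, 0.0757, 0.0563 and 0.0587, and those of PPAT, TAP1, NDUFS7, TIGAR, SESN1, SEMA7A and CDKN1A did not pass under median scaling, where the median difference of all genes was 0.27.

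**Figure D5:**
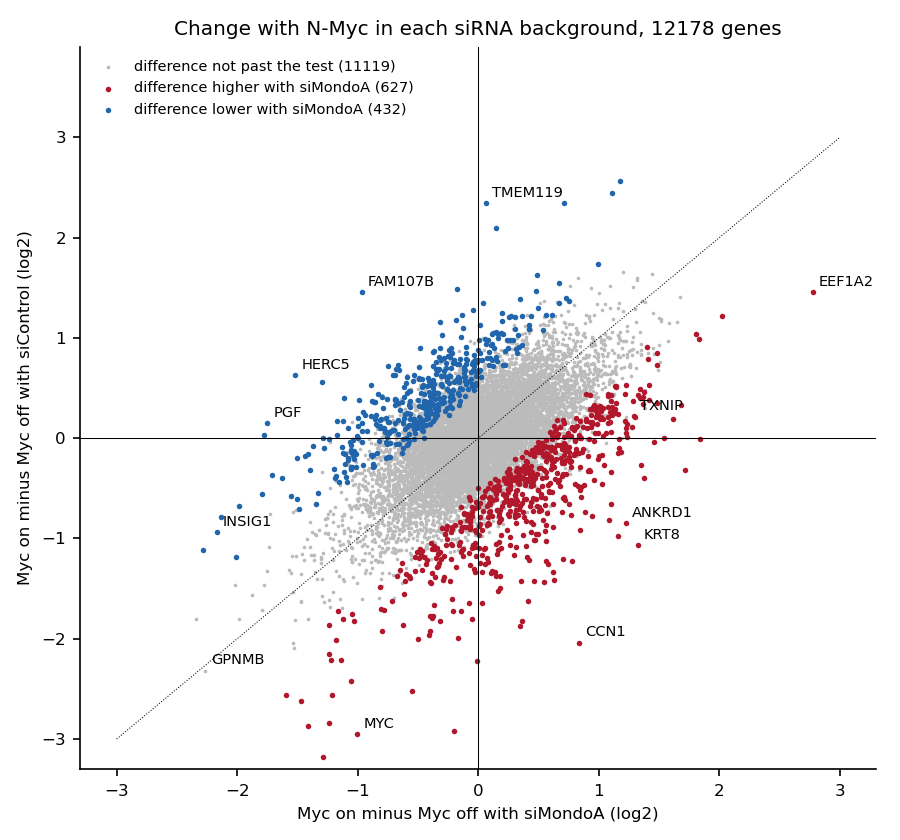
Change with N-Myc (log2) of 12178 genes with MondoA siRNA (horizontal axis) against control siRNA (vertical axis); red and blue points are the 627 and 432 genes whose difference passed higher or lower with MondoA depleted, grey points the rest, and the dotted line marks equal change. CCN1, KRT8 and ANKRD1 lie below it at the right, FAM107B, HERC5 and PGF above it at the left.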

How the data were processed

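RNA of Tet21N cells in 4 groups of 3 samples was measured on Illumina bead arrays, 1 sample an array; each sample was assigned to its group by its title. The deposited intensities are bead-summarized probe values on a linear scale, without background subtraction or normalization, and no source used here names the scanner software. The authors' detection score, high for bright probes, was taken as 1 minus a detection p-value. The authors' deposited log2 values equal the quantile-normalized log2 intensities without background correction (largest deviation 5.3e-14); lumi is named in the submitters' processing notes without its role.

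Of 47323 probes 10 had no values. In R 4.3.3, the neqc function of limma 3.58.1 (offset 16) corrected the background and applied quantile normalization, using detection p-values to infer the negative controls. A probe was kept if 3 or more of the 12 arrays gave it a detection p under 0.05, which held for 22188. Of the probes with values 30108 carry 1 gene symbol in the platform annotation, 8 several and 17197 none, and 30069 were matched to a RefSeq gene. A gene was represented by its probe with the highest mean over all arrays, which left 12178 genes, 3288 of them with several detected probes. Without background correction several list medians were smaller in size, such as that of small nucleolar RNAs (0.36, against 0.78 with it). Quantile normalization sets every array to the same distribution, so changes are relative to the rest of the array. The number of arrays and the signal over background limit the precision.

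A model with 1 mean per group was fitted to all 12 arrays (lmFit and eBayes, 8 residual degrees of freedom) with 3 contrasts: Myc on minus Myc off with MondoA siRNA, the same with control siRNA, and their difference. P-values were adjusted by Benjamini-Hochberg over all 12178 genes. "At least" folds set the detected group's mean against a floor, on each array of the dim group the larger of its own signal and the dimmest signal detected there. On simulated arrays with 100 changed genes of each size, 32% of changes of 0.5 and 89% of changes of 1 (log2) were found in the main contrast, and 3% and 52% in the difference. Far fewer genes were changed there than passed in the data. The adjusted threshold depends on that share, so these rates do not carry over to the data.

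Named genes are the 4 genes MLXIP, MYCN, MYC and TXNIP, genes from the 20 highest and 20 lowest changes with non-overlapping arrays, up to 6 members a list with the largest changes and members a list is described by, and genes from the 10 highest, 10 lowest and 10 list members with the largest differences. The 42 lists (1132 genes), this rule and the genes shown were chosen with earlier results of these data known. Lists are described by counts and medians, with no list test. Alternatives were no background correction, median scaling, the authors' values, a detection p of 0.01, no detection filter, the mean of a gene's probes, a trended robust fit, a replicate block, 6 arrays alone, and each array left out. Promoter sequences are from RefSeq (GRCh38.p14). Genes without a detected probe were left out, and some genes are not reported here.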

Additional observations from a re-analysis of the deposited data

Results flagged for a closer look

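The change with N-Myc differed between MondoA siRNA and control siRNA, in limma's test of the difference with Benjamini-Hochberg adjustment, for 1059 genes, and 67 of them are named in the text. Values here are the log2 change with MondoA siRNA minus that with control siRNA. Groups of 3 arrays are too small for a test of single outlying arrays.

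Among cell division and growth genes the difference was positive for CDC25C (1.22), TK1 (1.17), RRM2 (1.03), DLGAP5 (0.95), BUB1 (0.94), CCNA2 (0.92), HMMR (0.91), MCM10 (0.84) and AURKB (0.64). It was positive for GARS1 (0.73), HSP90AA1 (0.71), AARS1 (0.66), CCT8 (0.49), SNORD56 (0.80) and EEF1A2 (1.32). In metabolism it was positive for GLRX5 (1.35), COX5B (0.72), PSPH (0.68), LDHA (0.64), TPP1 (0.66), TXNIP (1.07) and SLC7A5 (0.49), and negative for PPAT (-0.67), NDUFS7 (-0.68), HMGCS1 (-1.23), INSIG1 (-1.23), FABP5 (-1.33) and HSD17B14 (-1.35).

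Among p53 targets and cell death genes it was negative for TIGAR (-1.03), GADD45A (-1.01), SESN1 (-0.97), GDF15 (-0.97), CDKN1A (-0.79) and BOK (-0.70), and positive for PLK2 (1.38). Immune genes had both signs, with HERC5 (-2.14), TNFSF4 (-1.31), HLA-B (-1.17), IFIT2 (-0.79), TAP1 (-0.76) and ISG15 (-0.65) negative and TAPBP (1.48), ACKR3 (1.46), CXCL12 (1.08), C1R (0.94) and C1S (0.92) positive.

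For YAP targets, the cytoskeleton, matrix and signalling genes the difference was positive for CCN1 (2.87), CRISPLD2 (2.71), KRT8 (2.39), HBEGF (2.23), DIO2 (2.22), ANKRD1 (2.07), CCN2 (2.04), UTS2 (2.04), COL12A1 (1.96), MYC (1.95), NTSR1 (1.84), TGM2 (1.54), SEMA3F (0.85), VIM (0.77) and MIX23 (0.76). It was negative for FAM107B (-2.42), TMEM119 (-2.28), CNTNAP2 (-1.95), PGF (-1.90), VCAN (-1.39) and SEMA7A (-0.95).

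Of the 67 differences 39 passed under every alternative tried. Another 17 did not pass when at least 1 single array was left out, namely those of AARS1, AURKB, BOK, C1R, CCT8, CXCL12, HMMR, IFIT2, ISG15, LDHA, MCM10, MIX23, PSPH, SEMA3F, SLC7A5, TNFSF4 and TPP1. The difference of SNORD56 did not pass without background correction or with the authors' values (0.12, adjusted p = 0.565). Second, dimmer probes of MCM10 and PSPH gave changes of 1.49 and 0.05 with MondoA siRNA, against 1.57 and 0.28 with control siRNA. On these probes neither gene had the larger change with MondoA siRNA.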

How the results depend on the processing

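The counts of genes past the threshold moved with the scaling, the background correction and single arrays; the causes were not tested. With MondoA siRNA 2399 genes were higher and 749 lower under median scaling, and with control siRNA 775 were higher, against 1774. The difference passed under median scaling for 1367 genes in the higher and 86 in the lower direction, where the median difference of all genes was 0.27. Without background correction, as with the authors' values, it passed for 1695 genes, 778 of them lower, and in the trended robust fit for 705 lower. Leaving out each array in turn gave 2921 to 3373 genes with MondoA siRNA (1469 to 1680 higher, 1452 to 1693 lower), 2947 to 3178 with control siRNA (1348 to 1436 higher, 1599 to 1742 lower) and 678 to 1142 for the difference (411 to 663 higher, 257 to 479 lower). The fewest differences came without siControl Myc-on replicate 2, and the fewest in the lower direction without siMondoA Myc-off replicate 1. With the replicate number as a block, 3500, 3647 and 904 genes passed in the 3 contrasts. Same-numbered arrays had deviations correlated at -0.047, 0.011 and -0.019 with MondoA siRNA and at 0.038, 0.057 and 0.006 with control siRNA. Correlations this weak gave no sign of pairing, but cannot show whether the numbers pair the samples. Taking the mean of a gene's probes turned the change of TAPBP to -0.24 and the difference of INSIG1 to 0.025 (adjusted p = 0.95). The difference of TAPBP did not pass with that mean either (adjusted p = 0.145). Under median scaling 11 named differences did not pass, those of BOK, CDKN1A, IFIT2, ISG15, LDHA, NDUFS7, PPAT, SEMA7A, SESN1, TAP1 and TIGAR. Of the changes of named genes with MondoA siRNA, 2175 values under the alternatives kept their side of the threshold. Another 20 lost the call, 23 gained it, and 1 that passed in the main fit or the alternative turned its sign. Changes that passed in neither could turn their sign and are counted among the 2175, such as YAP1 (-0.09 to 0.22).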

Other observations

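Amino acid stress genes driven by ATF4 moved in both directions with MondoA depleted. Of 19 tested, 5 rose (26.3%) and 4 fell (21.1%) with Myc on, beside 14.9% and 15.1% of all genes. The difference between the settings passed for 0 of the 19. The members that rose were the biosynthetic genes PSAT1 (1.34), CBS (1.02), ASNS (0.83) and PHGDH (0.80) and ATF4 itself (0.72). Those that fell were SESN2 (-1.30), VLDLR (-1.21), NUPR1 (-0.91) and DDIT3 (-0.88), of which DDIT3 encodes the stress factor CHOP.

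Of 9 tested genes of the MYC and MondoA network 0 rose and 3 fell (33.3%, beside 15.1% of all genes). Among these, MYC fell by 1.00 and the MAX partner MXD4 fell by 0.92.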
